A study of Gallus gallus with 6 samples.

Results

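Mix 2 is 1 of 6 chicken RNA samples measured on Affymetrix arrays, and 1 of 4 that hold a mixture of tissues. It is described here against mixes 1, 3 and 4, with the single adipose tissue and liver arrays of the study given after them. Mix 2 was chosen by its sample label, and all probe sets of the table other than the Affymetrix controls were kept, which left 38439 of 38535. All 6 samples came from male Arbor Acres chickens, a meat-type breed, aged 49 days, which the labels also give as 7 weeks. The labels state that 21 tissues were collected, but they do not name the tissues in any mix, their proportions, or whether birds were pooled. Each group is a single array, so no value below carries a replicate error, and the number of arrays limits the precision. The 3 other mixes are different mixtures and not replicates of a control.

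A gene made by 1 tissue gives a signal on a mix that depends on how much of that tissue went in and on how much of the transcript each of its cells held, and these cannot be told apart. Some organs leave a strong mark all the same. The acinar cells of the pancreas spend most of their messenger RNA on digestive enzymes, kidney tubules are lined with transporters arranged in order along the nephron, and heart muscle uses its own versions of the contractile proteins beside a natriuretic hormone. The testis combines germ cells with Sertoli cells, which nurse them, and Leydig cells, which make androgen.

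The values are scaled signals: the deposited signal of a probe set, with each array brought to a trimmed mean of 500. For comparisons they were put on the log2 scale after adding 42.1, the 25th percentile of the mixes, and a probe set was used if it exceeded 139 (the median of the mixes) on at least 1 mix. This left 24118 probe sets and, taking the brightest probe set of each gene with 1 symbol, 11236 genes. The margin of a gene is its log2 level on mix 2 minus that on the brightest other mix, or minus that on the dimmest other mix for genes low on mix 2. A gene was counted as high or low on mix 2 when its margin reached 2, which is 4-fold. Over all 11236 genes the median difference of mix 2 from the mean of the other mixes was 0.03. Mix 2 correlated with mix 1 at a Pearson r of 0.814 across probe sets, with mix 3 at 0.766 and with mix 4 at 0.793. Probe sets of 1 array are not independent, so these are descriptions.

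Genes high on mix 2 far outnumbered genes low on it. At least 4-fold above every other mix were 231 probe sets (0.958% of those used) and, with 1 probe set per gene, 133 genes (1.18% of those used). At least 4-fold below were 14 probe sets (0.058%) and 8 genes (0.0712%). By any size, 2491 genes (22.2%) lay above all 3 other mixes and 1769 (15.7%) below. The counts by any size given for each list below are to be read beside these shares. The same 4-fold rule gave 384, 196 and 648 probe sets above and 91, 99 and 23 below when mix 1, 3 or 4 was set against the rest. No probe set passed a test of mix 2 against the spread of the other mixes by limma with Benjamini-Hochberg adjustment (0 of 24118, with a smallest adjusted p = 0.184). Before adjustment 526 had a p under 0.05, and the median SD among the other mixes was 0.48 on the log2 scale. The differences are therefore given as sizes. They depend on which mixes are present: without mix 1 the number of high genes was 283 and without mix 4 it was 290, and the number of low genes was 77 without mix 1, 25 without mix 3 and 21 without mix 4.

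Of the 133 high genes, the median gene stood 8.85-fold above the brightest other mix, 44 stood at least 16-fold and 16 at least 64-fold above it. The next brightest mix was mix 4 for 59, mix 1 for 45 and mix 3 for 29 of them. Counting only probe sets past the filter, 88 were measured by a single one. Of the 45 with several, 42 were above every other mix by all of these and 24 at least 4-fold by all. Probe sets under the filter on every mix are left out of this count. SLC12A3 had 1 of 3 used and LOC421583 1 of 4. Set against adipose tissue and liver as well, 77 stayed at least 4-fold above. On liver 28 were brighter than on mix 2. At the edge of the rule, SLC2A11L1, CWH43 and RIDA each had a margin of 2.01 just inside, while CLDN1, SLC13A5 and LOC416086 each rounded to 2.00 from just outside.

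**Figure D1:**
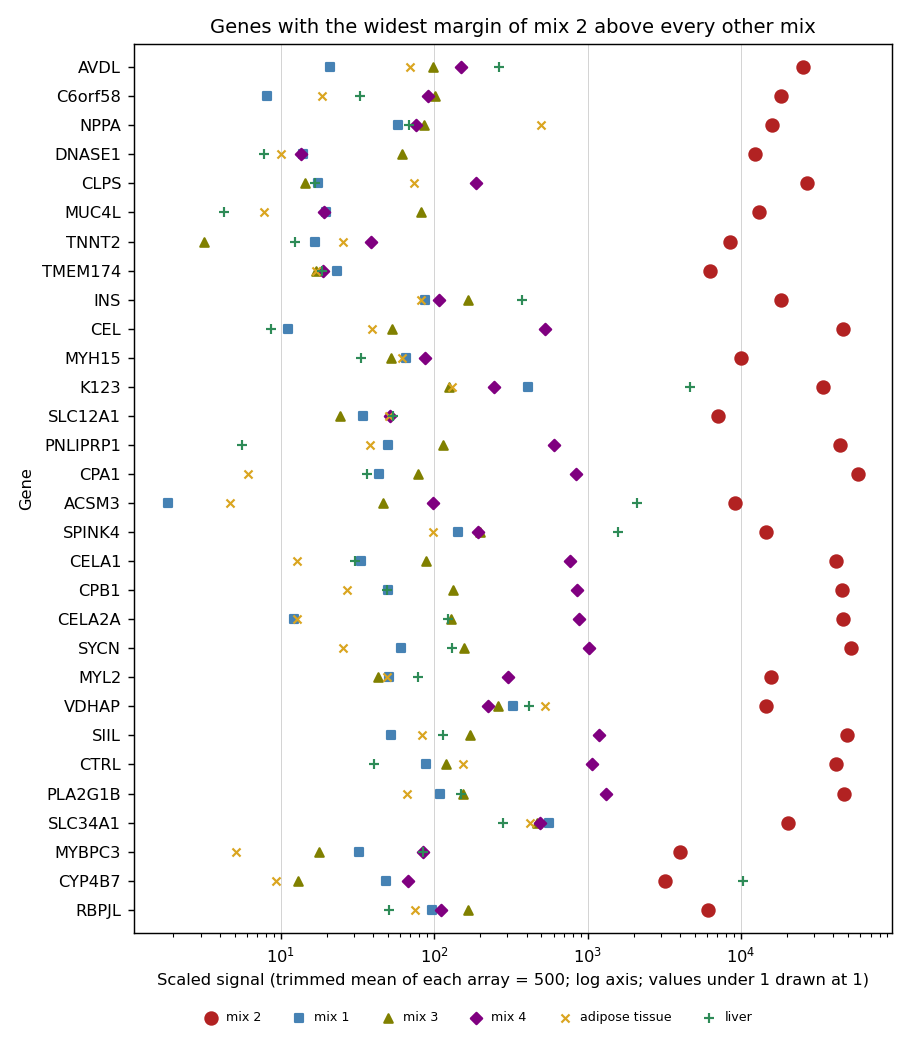
Scaled signal (log axis) of the 30 genes with the widest margin on mix 2, 1 row per gene, with a point for each of the 6 arrays; the large red circle is mix 2. Mix 2 lies to the right of every other mix in all rows, from 3199 for CYP4B7 to 57864 for CPA1, and liver lies beyond it for CYP4B7 alone.

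The list with the largest share past the rule was the product list of the pancreatic acinar cell. Of 20 acinar genes used, 15 were at least 4-fold above every other mix, 75% of the list where all genes gave 1.18%, and 18 were above by any size. All 33 lists were drawn up with earlier results of these data known, so this share and those of the lists below are descriptions and not independent counts. The median scaled signal of the list was 41019 on mix 2, against 74.5, 141 and 846 on mixes 1, 3 and 4. Carboxypeptidase A1, CPA1, which trims digested proteins from their carboxyl end, gave 57864 on mix 2, against 43.8, 78.0 and 837 on mixes 1, 3 and 4, a margin of 6.04. CEL, the bile salt-dependent lipase, gave 46564 on mix 2, against 11.1 on mix 1, 53.5 on mix 3 and 527 on mix 4 (margin 6.36). CLPS, the colipase that anchors lipase to fat droplets, gave 26781 on mix 2, against 17.4, 14.3 and 188 on mixes 1, 3 and 4 (6.86). On all 3 the order was the same: mix 2 first, mix 4 a distant second, mixes 1 and 3 near the low end of the array.

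The protein-digesting enzymes followed that order. The trypsinogen PRSS2, whose product activates the other proenzymes, gave 52658 on mix 2, against 39.1, 201 and 2113 on mixes 1, 3 and 4 (margin 4.61). Of the elastases, CELA1 gave 41644 on mix 2, against 33.5 to 768 on the other mixes, and CELA2A gave 46483 on mix 2, against 12.1 to 885 on the other mixes. The chymotrypsin-like CTRL gave 41647 on mix 2, against 88.2 to 1065 on the other mixes. In each of these the brightest other mix was mix 4, and this held for CTRC, another chymotrypsin (39724 on mix 2, against 20.3 to 1461 on the other mixes), and for carboxypeptidase B1, CPB1 (45592 on mix 2, against 49.9 to 855 on the other mixes). Mix 4 remained a small fraction of mix 2 throughout.

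Fat-digesting and granule genes kept the same order. The lipase-related PNLIPRP1 gave 44485 on mix 2, against 49.9 on mix 1, 114 on mix 3 and 608 on mix 4, and the phospholipase PLA2G1B gave 46943 on mix 2, against 109, 154 and 1323 on mixes 1, 3 and 4. SYCN, syncollin of the zymogen granule, gave 52024 on mix 2, against 60.7, 156 and 1018 on mixes 1, 3 and 4. Across 12 secreted acinar products (the 11 so far and SYCN) mix 2 ran between 26781 and 57864, mix 1 between 11.1 and 109, mix 3 between 14.3 and 201 and mix 4 between 188 and 2113. The signal on mix 4 was 0.703% to 4.01% of that on mix 2, with a median of 1.89%. That small signal on mix 4 was present for each of the 12, and whether it is pancreas RNA in mix 4 was not tested.

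RBPJL, the acinar partner of the transcription factor that keeps the enzyme genes on, gave 6132 on mix 2, against 97.2 on mix 1, 167 on mix 3 and 110.1 on mix 4 (margin 4.88), and here mix 3 and not mix 4 came next. The amylases, which cut starch, completed the 15 genes and are named with their values known. AMY2A gave 40393 on mix 2, against 522, 692 and 7576 on mixes 1, 3 and 4 (margin 2.41), a narrower lead than the proteases had. Of its 5 probe sets, only 3 passed the filter, and all 3 were at least 4-fold above. AMY1A gave 6212 on mix 2, against 889.8, 1466 and 1346 on mixes 1, 3 and 4 (margin 2.05), but 1 of its probe sets was not above the other mixes (lowest margin -0.12). PDIA2, a disulfide isomerase of the acinar endoplasmic reticulum, was shared with mix 1: 6976 on mix 2, against 2308 on mix 1, 86.6 on mix 3 and 83.9 on mix 4. Dim genes of the list did not set mix 2 apart: the cholecystokinin receptor CCKAR gave 179 on mix 2, against 159.5, 90.1 and 72.8 on mixes 1, 3 and 4, and SPINK2, a protease inhibitor, gave 72.8 on mix 2, against 107, 159.8 and 92.3 on mixes 1, 3 and 4. Another 17 genes of the list, PRSS1 and PNLIP among them, were not analysed here, and CUZD1 stayed under the filter.

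The pancreatic islet hormones INS, PPY and GCG were bright as well, although most other islet genes were not. INS, insulin, gave 18252 on mix 2, against 86.6 on mix 1, 165 on mix 3 and 108 on mix 4 (margin 6.46), with 81.7 on adipose tissue and 374 on liver. PPY, pancreatic polypeptide, gave 2436 on mix 2, against 88.7, 99.7 and 6.99 on mixes 1, 3 and 4 (4.13). GCG, glucagon, gave 4162 on mix 2, against 1325, 156 and 56.4 on mixes 1, 3 and 4 and so missed the 4-fold rule by its signal on mix 1. Its second probe set was brightest on mix 1, with 1127 on mix 2, against 2250 on mix 1, 703 on mix 3 and 314 on mix 4. By the brightest probe set of each gene, these 3 hormones were highest on mix 2. The factor NKX6-1, which specifies beta cells, did not share the pattern: 485 on mix 2, against 1593 on mix 1, 4343 on mix 3 and 1309 on mix 4. Of 15 islet genes used, 2 were at least 4-fold above, 4 were above by any size (over all genes 22.2%) and the median difference was 0.23. IAPP, another islet hormone among the 15, did not reach 4-fold. Genes of secretory granules that neurons also use were brighter elsewhere, as for SCG2 (701 on mix 2, against 1542, 480.5 and 8063 on mixes 1, 3 and 4) and PTPRN2 (2152 on mix 2, against 592, 48.4 and 7764 on mixes 1, 3 and 4). SST and PDX1 were not analysed here.

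**Figure D2:**
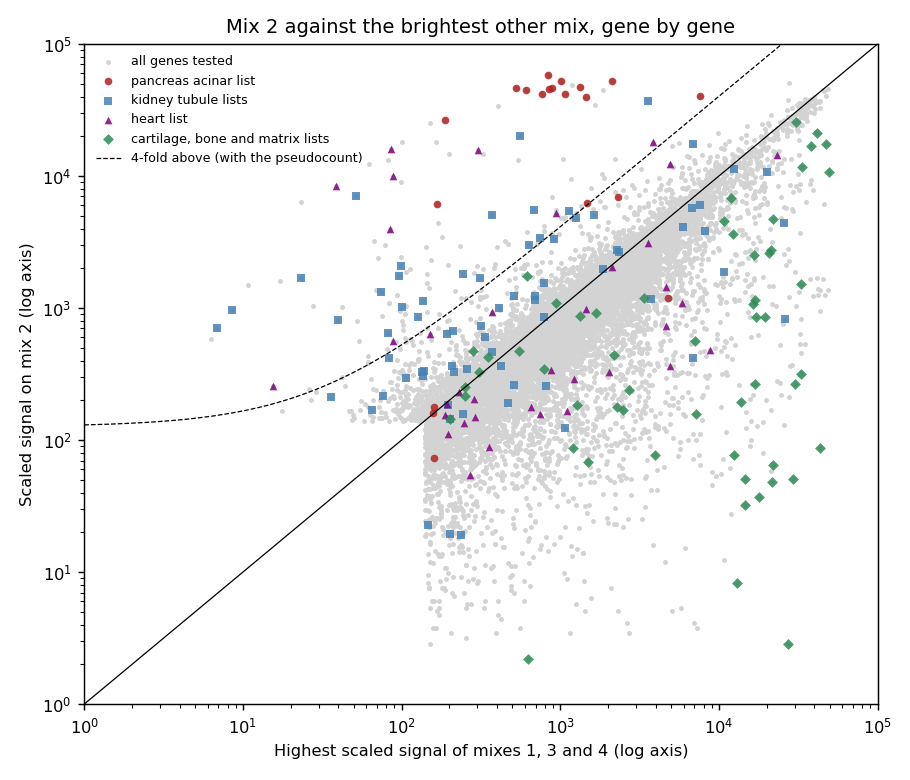
Scaled signal on mix 2 (vertical, log axis) against the highest of mixes 1, 3 and 4 (horizontal, log axis) for all 11236 genes (grey) and for 4 groups of gene lists in colour; the solid line is equality and the dashed line 4-fold above. Acinar genes form a cloud at the top with 15 of 20 over the dashed line, kidney and heart genes spread on both sides of it, and cartilage, bone and matrix genes lie mostly below equality.

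Kidney genes formed the second group. Of 39 genes of the proximal tubule, which reclaims most of the filtered salt, sugar and amino acids, 12 were at least 4-fold above every other mix (30.8%), 25 were above by any size and the median difference was 2.73. The phosphate carrier SLC34A1 gave 20184 on mix 2, against 559 on mix 1, 471 on mix 3 and 491 on mix 4 (margin 5.07). LRP2, megalin, the receptor that takes up filtered proteins, gave 2066 on mix 2, against 46.2, 59.9 and 99.5 on mixes 1, 3 and 4 (3.90). On both, mix 2 stood far above the other mixes by the brightest probe set. Of the 9 probe sets of LRP2, 5 passed the filter and 3 of these reached 4-fold (lowest margin 1.70). TMEM27, collectrin, which brings amino acid carriers to the brush border, gave 805 on mix 2, against 17.4, 37.6 and 40.0 on mixes 1, 3 and 4 (3.37).

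Further carriers of this segment were also brightest on mix 2. SLC22A7, an organic anion carrier, gave 1322 on mix 2, against 23.8 on mix 1, 36.3 on mix 3 and 74.7 on mix 4. The cation exporter SLC47A1 gave 5459.9 on mix 2, against 365 to 1141 on the other mixes, and the creatine carrier SLC16A12 gave 1685 on mix 2, against 73.7, 37.9 and 313 on mixes 1, 3 and 4. SLC7A13, an amino acid carrier, had a margin of 2.90. FXYD2, a subunit that tunes the sodium pump, gave 5092 on mix 2, against 372, 83.4 and 60.5 on mixes 1, 3 and 4 by its brightest probe set, but 2 of its 4 probe sets were under 4-fold and 1 of these was brightest on mix 3 (margin -0.43).

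Metabolic genes of the proximal tubule were shared with liver. PCK1, the enzyme that commits carbon to glucose synthesis, gave 37172 on mix 2, against 3576 on mix 1, 38.5 on mix 3 and 369.9 on mix 4, with 3.66 on adipose tissue and 24853 on liver. GATM, which starts creatine synthesis, gave 5516 on mix 2, against 26.9, 78.6 and 686 on mixes 1, 3 and 4, with 10981 on liver. KHK, which phosphorylates fructose, gave 3369 on mix 2, against 743, 69.4 and 119 on mixes 1, 3 and 4, with 5404 on liver. The glucose 6-phosphate carrier SLC37A4 gave 2993 on mix 2, against 638 on mix 1, 384 on mix 3 and 617 on mix 4, with 5747 on liver, and its other probe set ran the other way (-0.71). The last 3 were brighter on liver than on mix 2, as no other of the 12 was.

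A part of the proximal list was as bright on mix 1 or brighter. SLC6A19, which carries neutral amino acids in kidney and gut, gave 10669 on mix 2, against 20041, 135 and 115 on mixes 1, 3 and 4. SLC3A1, the heavy subunit of the cystine carrier, gave 4095 on mix 2, against 5968, 126 and 82.9 on mixes 1, 3 and 4. SLC5A12, a lactate carrier, gave 1963 on mix 2, against 1867 on mix 1, 34.1 on mix 3 and 47.0 on mix 4. The factor HNF4A gave 2650.1 on mix 2, against 2354, 39.8 and 101 on mixes 1, 3 and 4. Mix 1 was the brightest mix for 11 of the 39 genes, mix 2 for 25, mix 3 for 3 and mix 4 for 0. CUBN and AMN, the receptor pair that takes up vitamin B12 in gut and filtered proteins in kidney, favoured mix 2 but not by 4-fold: CUBN gave 4797 on mix 2, against 165 to 1258 on the other mixes, and AMN gave 1239 on mix 2, against 6.75 to 510.2 on the other mixes. A second probe set of CUBN had a difference of -2.02. Without mix 1, 22 genes of the list passed the 4-fold rule.

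Genes of the later nephron pointed the same way. Of 33 genes of the loop, distal tubule and collecting duct, 9 were at least 4-fold above every other mix (27.3%), 25 were above by any size and the median difference was 1.77. SLC12A1, the salt carrier of the thick ascending limb that loop diuretics block, gave 7062 on mix 2, against 34.6, 24.2 and 51.6 on mixes 1, 3 and 4 (margin 6.25). Of its 5 probe sets, only 4 passed the filter, and all 4 reached 4-fold. SLC12A3, the thiazide-sensitive carrier of the distal tubule, gave 1132 on mix 2, against 136 on mix 1, 74.8 on mix 3 and 102 on mix 4 (2.72). SCNN1A, a subunit of the sodium channel of the collecting duct, gave 1797 on mix 2, against 242, 126 and 156 on mixes 1, 3 and 4 (2.69).

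Acid secretion and ion handling were represented too. ATP6V0A4, a proton pump subunit of intercalated cells, gave 967 on mix 2, against 6.34, 8.60 and 7.23 on mixes 1, 3 and 4 (margin 4.32). RHCG, which lets ammonia into the urine, gave 1756 on mix 2, against 96.4 on mix 1, 29.9 on mix 3 and 34.0 on mix 4 (3.70). CLDN16, a claudin for magnesium between cells of the loop, gave 703 on mix 2, against 6.87, 6.05 and 5.54 on mixes 1, 3 and 4 (3.93), but its other probe set had a difference of 0.93. On each of these genes mixes 1, 3 and 4 were all under 100.

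The developmental factors PAX2, EMX2 and TFAP2B of this list were brightest on mix 2 too and passed the rule. IRX1, GATA3, HOXB7 and FOXI1, factors also on the list and used, did not reach 4-fold. PAX2, needed for kidney formation, gave 1693 on mix 2, against 8.72, 23.2 and 7.47 on mixes 1, 3 and 4 (margin 4.73). EMX2, needed for the ureteric bud, gave 859 on mix 2, against 53.3 on mix 1, 10.2 on mix 3 and 127 on mix 4 (2.41), and TFAP2B, a factor of the distal nephron, gave 651 on mix 2, against 50.2, 29.3 and 81.7 on mixes 1, 3 and 4 (2.49). Some later nephron genes were brightest on mix 2 but missed the rule: the potassium channel KCNJ1 gave 212 on mix 2, against 4.46 to 35.9 on the other mixes, the water channel AQP2 gave 326 on mix 2, against 17.4 to 134 on the other mixes, and SCNN1B gave 417 on mix 2, against 4.78 to 82.9 on the other mixes. CLDN10, a claudin of tubules, was about equally bright on mix 1: 6070.1 on mix 2, against 7559, 43.6 and 163 on mixes 1, 3 and 4. Over the later nephron list, mix 2 was brightest for 25 genes, mix 1 for 4, mix 3 for 3 and mix 4 for 1. Among the exceptions was UMOD, known in mammals as the most abundant protein of urine. Its probe set was dim on every array and dimmest on mix 2 among the mixes. It gave 22.8 on mix 2, against 118 on mix 1, 72.9 on mix 3 and 146 on mix 4.

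The glomerulus, where blood is filtered, left a weaker trace. None of its 16 genes used reached 4-fold, 6 were above every other mix by any size and the median difference was 0.54. TCF21, a factor of podocytes and other mesenchymal cells, gave 3479.9 on mix 2, against 1571, 61.5 and 397 on mixes 1, 3 and 4, and the basement membrane collagen COL4A4 gave 241 on mix 2, against 65.0, 87.6 and 94.2 on mixes 1, 3 and 4. Kidney genes outside the lists were also among the 133, and these are named with their values known: PKHD1, the gene of recessive polycystic kidney disease, gave 390.1 on mix 2, against 29.4 to 61.8 on the other mixes, the drug exporter SLC47A2 gave 3457 on mix 2, against 73.6 to 179 on the other mixes, and the potassium channel KCNJ16 gave 4157 on mix 2, against 11.1 to 792 on the other mixes. TMEM174, a membrane protein known from mammalian proximal tubule and among the widest margins of all, gave 6304 on mix 2, against 23.2 on mix 1, 16.9 on mix 3 and 18.8 on mix 4, with a second probe set at a margin of 1.81.

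Heart muscle genes formed the third group, and here mix 2 parted from mix 4. Of 36 heart genes used, 9 were at least 4-fold above every other mix (25%), 13 were above by any size and the median difference was 0.47. NPPA, the atrial natriuretic hormone, gave 16015 on mix 2, against 57.8, 86.0 and 75.9 on mixes 1, 3 and 4 (margin 6.97), with 499 on adipose tissue and 68.7 on liver. TNNT2, cardiac troponin T, gave 8423 on mix 2, against 16.6, 3.18 and 38.6 on mixes 1, 3 and 4 (6.71). MYH15, in chicken a myosin heavy chain of the ventricle, gave 9937 on mix 2, against 66.0 on mix 1, 52.5 on mix 3 and 87.7 on mix 4 (6.26). None of these had a signal above 100 on any other mix.

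Light chain and thick filament genes agreed in direction. MYL2, the regulatory light chain of ventricle and slow muscle, gave 15604 on mix 2, against 51.0, 43.0 and 304 on mixes 1, 3 and 4 (margin 5.50). MYBPC3, cardiac myosin-binding protein C, gave 3987 on mix 2, against 32.5, 17.8 and 85.1 on mixes 1, 3 and 4 (4.99), with 2 of its 3 probe sets past 4-fold. The cardiac factor NKX2-5 gave 563 on mix 2, against 7.47 to 88.5 on the other mixes, and IRX4, a marker of ventricle, gave 258 on mix 2, against 7.39 to 15.4 on the other mixes. IRX4 passed with a margin of 2.38.

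Heart genes that skeletal muscle also uses were split between mix 2 and mix 4. ACTC1, cardiac actin, gave 18222 on mix 2, against 378 on mix 1, 311 on mix 3 and 3849 on mix 4 (margin 2.23), and CSRP3, a protein of the Z disc, gave 5236 on mix 2, against 43.8, 121 and 945 on mixes 1, 3 and 4 (2.42). MYL3, the essential light chain of ventricle and slow muscle, gave 12424 on mix 2, against 2.11, 481 and 4909.5 on mixes 1, 3 and 4. For TNNC1, troponin C of heart and slow muscle, mix 4 was the brighter: 14533 on mix 2, against 119 on mix 1, 3215 on mix 3 and 23368 on mix 4. MYOZ2, a Z disc protein, was nearly equal on both: 2041 on mix 2, against 6.34, 273 and 2107 on mixes 1, 3 and 4. Over the 36 genes, mix 4 was brightest for 14, mix 2 for 13, mix 1 for 8 and mix 3 for 1.

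Fast skeletal muscle genes did not go with mix 2. None of 42 skeletal genes used reached 4-fold above, 1 was above every other mix by any size, 4 were below, and the median difference was -0.46. MYLPF, the light chain of fast fibres, gave 219 on mix 2, against 81.1, 815 and 16321 on mixes 1, 3 and 4, and the myogenic factor MYOD1 gave 21.5 on mix 2, against 5.55 on mix 1, 114 on mix 3 and 1315 on mix 4. Myoglobin, MB, the oxygen store of heart and red muscle, was brightest on mix 1: 8449 on mix 2, against 30758, 261 and 1857 on mixes 1, 3 and 4. The median of the skeletal list was 366 on mix 2, against 49.5, 360.0 and 3086 on mixes 1, 3 and 4. Without mix 4 the median difference of this list was 0.74 and without mix 1 it was -1.30, while that of the heart list was 0.98 without mix 4. The probe sets for MYH7 and PLN stayed under the filter, and MYH6, MYL7 and TNNI3 were not analysed here.

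A further set of very bright genes was on the list of mucous and serous glands. Of its 23 genes used, 6 were at least 4-fold above every other mix (26.1%) and 1 was below. The list as a whole did not stand out: its median difference was 0.12, with 12 genes above the mean of the other mixes and 11 below. Which tissue gave the bright signals was not tested. Earlier results of these data had already named AVDL, C6orf58 and MUC4L, so their place on this list is no independent count. AVDL, an avidin-like gene, had the widest margin of all 11236 genes (7.04): 25243 on mix 2, against 20.9, 98.1 and 150.1 on mixes 1, 3 and 4. C6orf58 gave 18093 on mix 2, against 8.19 on mix 1, 101 on mix 3 and 91.8 on mix 4 (6.99), and MUC4L, named as a mucin, gave 13186 on mix 2, against 19.8, 82.5 and 19.3 on mixes 1, 3 and 4 (6.73). All 3 were also dim on the single tissues, with at most 265 on liver and 69.5 on adipose tissue, both for AVDL.

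Avian beta-defensins, small antimicrobial peptides of epithelia and leukocytes, were divided. AvBD10 gave 44961 on mix 2, against 116, 97.1 and 1869 on mixes 1, 3 and 4 (margin 4.56) and was nearly as bright on liver (39574). AvBD9 gave 8179 on mix 2, against 82.9 on mix 1, 147 on mix 3 and 1557 on mix 4 (2.36) and was brighter on liver (59011). AvBD11 gave 434 on mix 2, against 46.7, 61.8 and 33.0 on mixes 1, 3 and 4 (2.20), with 64.8 on liver. AvBD1, which marrow leukocytes make, was instead brightest on mix 3: 1238 on mix 2, against 1429, 39096 and 15648 on mixes 1, 3 and 4. LYG2, a goose-type lysozyme, was at least 4-fold below every other mix (1044 on mix 2, against 6959 on mix 1, 30495 on mix 3 and 8430.3 on mix 4). Without mix 1, 10 genes of the list were at least 4-fold above.

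Secreted and unplaced genes with wide margins completed the top. DNASE1, which degrades DNA outside cells, gave 12416 on mix 2, against 14.0, 62.1 and 13.5 on mixes 1, 3 and 4 (margin 6.90). SPINK4, a Kazal-type protease inhibitor, gave 14614 on mix 2, against 143, 199 and 192 on mixes 1, 3 and 4 (5.92), with 1586 on liver. SIIL gave 49017 on mix 2, against 52.3 on mix 1, 170.0 on mix 3 and 1193 on mix 4 (5.31), with a second probe set at 1.33, and K123 gave 34196 on mix 2, against 407, 125 and 247 on mixes 1, 3 and 4 (6.25), with 4648 on liver. VDHAP gave 14602 on mix 2, against 326, 262 and 224 on mixes 1, 3 and 4 (5.31). None of these 5 was on a tissue list. In all, 55 of the 133 high genes were on a list and 78 on none, and a further 45 probe sets past the rule had no single gene symbol.

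Some of the high genes on no list code for enzymes of amino acid and drug metabolism that liver and kidney share. They are named with their values known, beside ACSM3 and CYP4B7, which the naming rule gave. ACSM3, which activates medium-chain fatty acids, gave 9075 on mix 2, against 1.85 on mix 1, 46.2 on mix 3 and 98.6 on mix 4, with 2101 on liver. CYP4B7, a cytochrome P450, gave 3199 on mix 2, against 48.6, 13.1 and 67.5 on mixes 1, 3 and 4, with 10246 on liver. DPYS, which breaks down pyrimidines, gave 13328 on mix 2, against 497, 24.2 and 538 on mixes 1, 3 and 4, with 28319 on liver. On these 3 the liver signal ran from below to above that of mix 2.

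The same held for the next examples. MAT1A, which makes S-adenosylmethionine, gave 13407 on mix 2, against 403 to 1037 on the other mixes, with 52058 on liver. HGD, of tyrosine breakdown, gave 868 on mix 2, against 8.60 to 75.4 on the other mixes, with 12051 on liver. RGN, regucalcin, gave 34534 on mix 2, against 652 to 1651 on the other mixes, with 32099 on liver, and CTH, of cysteine synthesis, gave 10385 on mix 2, against 1171 to 1829 on the other mixes, with 9089 on liver. Mix 2 was the brightest mix each time, while 49 of the 133 high genes were within 4-fold of liver or dimmer than it.

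Plasma proteins of hepatocytes were high on mix 2 in part, far below the liver array. Of 24 genes used, 1 was at least 4-fold above every other mix, where all genes gave 1.18%. By any size 6 were above, where all genes gave 22.2%. None was below all 3, and the median difference was 1.35. FGB, a fibrinogen chain, gave 13472 on mix 2, against 82.9 on mix 1, 136 on mix 3 and 2211 on mix 4 (margin 2.58), with 62064 on liver. The other chains did not stand out: FGA gave 529.9 on mix 2, against 13.7 to 579 on the other mixes, with 63573 on liver, and FGG gave 1211 on mix 2, against 149 to 2146 on the other mixes, with 69071 on liver. ALB, albumin, was brighter on mix 4: 5834 on mix 2, against 444, 1003 and 11320.5 on mixes 1, 3 and 4. The apolipoproteins APOA4 and APOB, which gut also makes, were bright on mixes 1 and 2. By the brightest probe set, APOA4 was brighter on mix 1 and APOB on mix 2. APOA4 gave 8688 on mix 2, against 15283, 68.8 and 576 on mixes 1, 3 and 4. APOB gave 10925 on mix 2, against 7434 on mix 1, 13.7 on mix 3 and 337 on mix 4. The 6 probe sets of APOB that passed the filter differed by -0.60 to 4.34. The list median was 1023 on mix 2, against 252, 132 and 578 on mixes 1, 3 and 4, and 48415 on liver. Without mix 1, 5 of these genes passed the 4-fold rule, and without mix 4, 7 did.

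Testis genes were bright on mix 2 and mix 4 alike. None of the 25 Sertoli and Leydig genes reached 4-fold above every other mix, yet the median difference from the mean of the other mixes was 1.86. By any size 14 were above every other mix and 2 below (over all genes 22.2% and 15.7%). AMH, the Sertoli hormone that removes the female duct, gave 28759 on mix 2, against 95.1, 34.7 and 21419 on mixes 1, 3 and 4. Its other probe sets used lacked this gap. 1 of them had a difference of -0.05, and another gave 1188 on mix 2, against 788, 492 and 1549 on mixes 1, 3 and 4 (difference 0.47). DMRT1, the male-determining factor of birds, gave 10006 on mix 2, against 10.8, 68.5 and 9541 on mixes 1, 3 and 4. CLDN11, the claudin of the blood-testis barrier, gave 11938 on mix 2, against 323 on mix 1, 128 on mix 3 and 11519 on mix 4. By the brightest probe set of each of these genes, mixes 2 and 4 stood together, and mixes 1 and 3 lay far below them.

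Steroid genes behaved in the same way. CYP17A1, which turns progestagens into androgens, gave 19340.4 on mix 2, against 19.3, 29.0 and 13746 on mixes 1, 3 and 4. CYP11A1, which cuts the cholesterol side chain, gave 3229.6 on mix 2, against 79.2, 140.1 and 2939 on mixes 1, 3 and 4, and HSD3B1, the next enzyme, gave 2226 on mix 2, against 33.0 on mix 1, 79.6 on mix 3 and 2139 on mix 4. STAR, which feeds cholesterol to them, gave 1216 on mix 2, against 76.6, 75.8 and 1125 on mixes 1, 3 and 4. The adrenal cortex list, which shares these genes, had 0 of 16 past 4-fold, 8 above by any size and a median difference of 0.60. Testis and adrenal cortex use the same steroid genes, so these values do not separate the organs. CYP21A1 (38.6 on mix 2) and MC2R (91.7) of the adrenal cortex list stayed under the filter. So did TH (73.4) and DBH (15.8) of the adrenal medulla list, whose 18 genes used had a median difference of -0.22. Which organ gave the steroid gene signals was not tested. INHBB, an inhibin subunit of Sertoli cells, gave 4833 on mix 2, against 161, 123 and 4717 on mixes 1, 3 and 4.

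Some germ cell genes, too, were bright on both mix 2 and mix 4. Of 57 germ cell genes on the array, 34 passed the filter and 0 of them reached 4-fold. By any size 10 were above every other mix (over all genes 22.2%), and the median difference was 0.83. DDX4, the vasa helicase that marks the germ line, gave 1626 on mix 2, against 99.6 on mix 1, 72.6 on mix 3 and 1595 on mix 4. DAZL, an RNA-binding protein of germ cells, gave 2263 on mix 2, against 50.7, 18.8 and 2484 on mixes 1, 3 and 4. PIWIL1, which guards the germ line genome with small RNAs, gave 1789 on mix 2, against 85.6, 164 and 1576 on mixes 1, 3 and 4, and SYCP3, of the paired meiotic chromosomes, gave 1207 on mix 2, against 82.7 on mix 1, 143 on mix 3 and 1094 on mix 4. Within 1.5-fold of mix 4 lay 26 of the 34 germ cell genes and 22 of the 25 Sertoli and Leydig genes (76.5% and 88%), where all genes gave 63.8%. Set against mixes 1 and 3 only, 10 and 13 of them reached 4-fold above (29.4% and 52%), where all genes gave 2.58%.

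**Figure D3:**
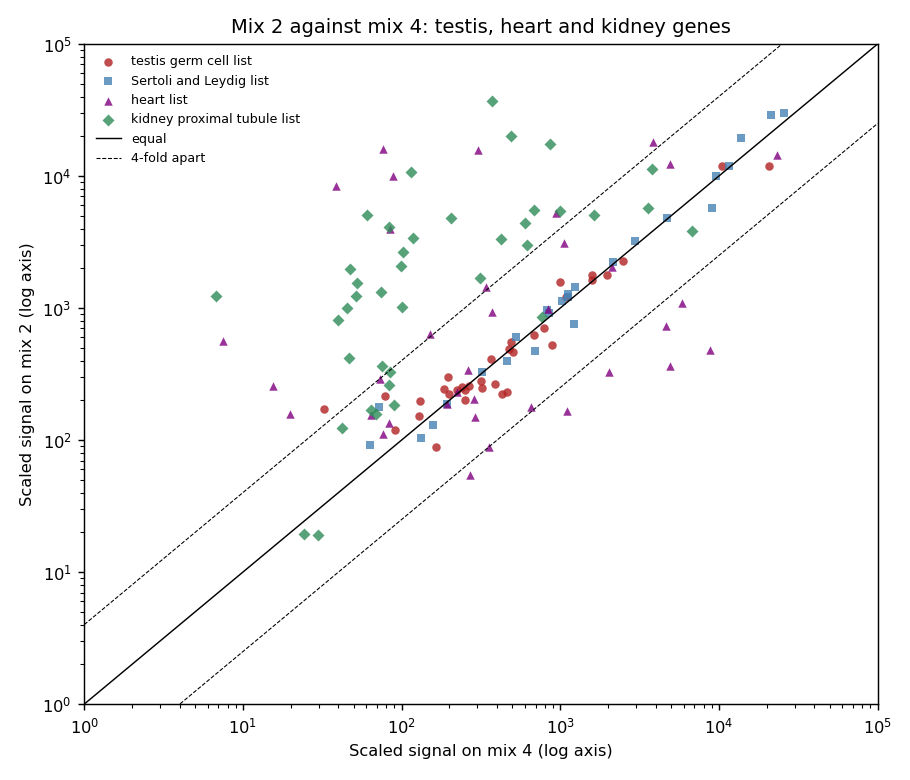
Scaled signal on mix 2 (vertical, log axis) against mix 4 (horizontal, log axis) for genes of 4 lists; the solid line is equality and the dashed lines are 4-fold apart. Germ cell and Sertoli and Leydig genes follow the line of equality up to AMH at 28759 and 21419. Most kidney genes lie above that line, with at least 3 below it, and heart genes lie on both sides.

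In all, 153 genes (1.36%) were at least 4-fold above mixes 1 and 3 on mix 2 and within 4-fold of mix 4. Of these, 92 lay within 1.5-fold of mix 4, 81 were brighter on mix 2 and 72 dimmer, with a median difference of 0.05. They also held 2 of the 14 lung and airway genes used. That list as a whole did not stand out. Its median difference was -0.16, with 6 genes above the mean of the other mixes and 8 below. The surfactant proteins SFTPA1 and SFTPA2, which coat the air spaces, were alike: SFTPA1 gave 1050.3 on mix 2, against 75.8, 47.4 and 1136 on mixes 1, 3 and 4, with 5436 on adipose tissue. SFTPA2 gave 981 on mix 2, against 27.2, 21.3 and 1015 on mixes 1, 3 and 4, with 4912 on adipose tissue. Shared with mix 1 were 122 genes (1.09%) and with mix 3 only 13 (0.116%). Of those shared with mix 1, 22 were on a list and 100 on none, and the lists with most of them were the proximal tubule (9), intestine (4) and hepatocyte (4) lists. Those shared with mix 3 included CYP24A1, which inactivates vitamin D (994 on mix 2, against 102 on mix 1, 413 on mix 3 and 45.1 on mix 4), and TAL1, a factor of blood and vessel precursors (1052 on mix 2, against 154, 1044 and 208 on mixes 1, 3 and 4), although both other probe sets of TAL1 were brightest on mix 3 (margins -2.98 and -2.30).

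**Figure D4:**
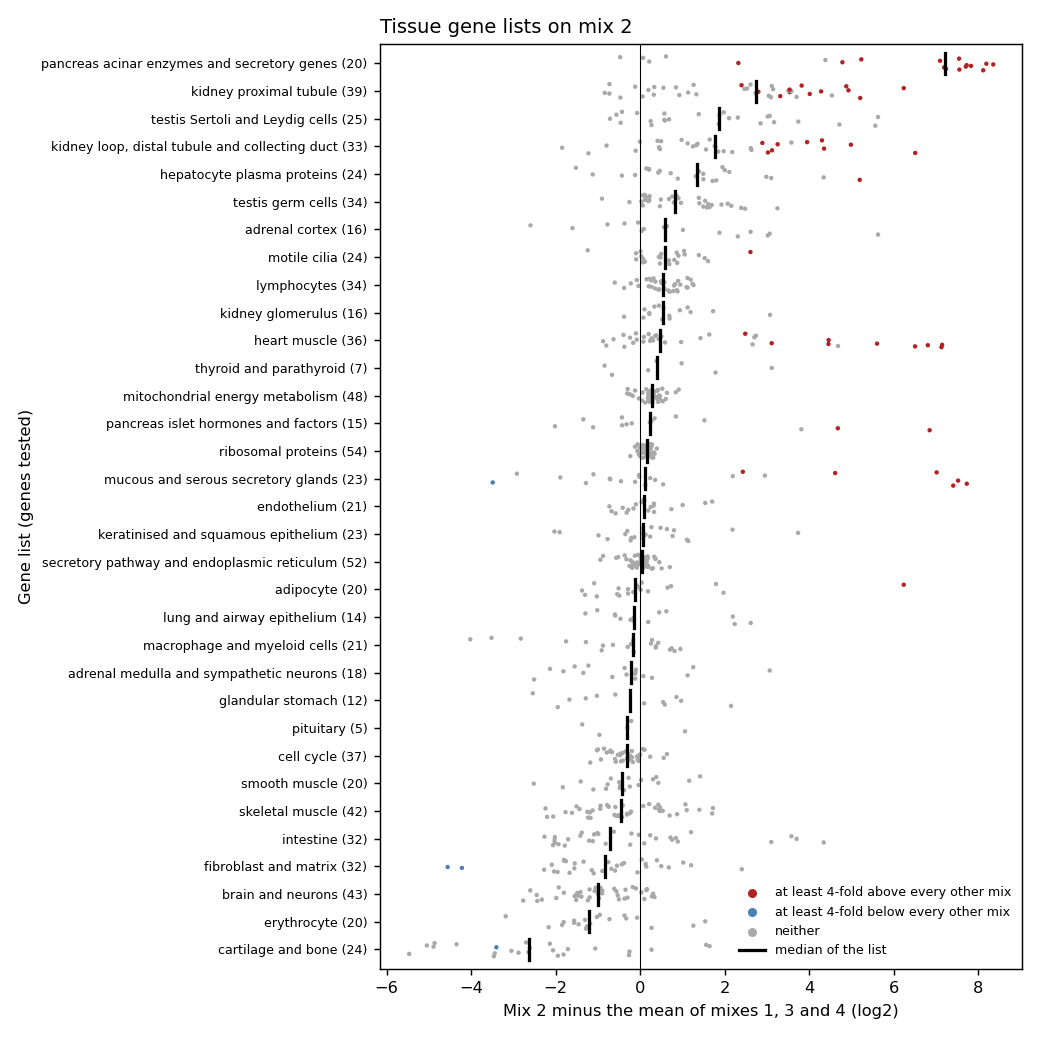
Difference of mix 2 from the mean of mixes 1, 3 and 4 (log2) for every gene of the 33 lists, ordered by their medians (black bars); red points are genes at least 4-fold above every other mix, blue points at least 4-fold below. The acinar list heads the plot at 7.20, the proximal tubule list at 2.73 and the Sertoli and Leydig list at 1.86 come next, and cartilage and bone close it at -2.63.

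Several tissues were fainter on mix 2 than on the mean of the other mixes, in most cases with 1 bright mix among those 3. Of 43 brain genes used, 0 were above every other mix and 8 below (over all genes 22.2% and 15.7%), with a median difference of -0.996. SNAP25, of synaptic release, gave 58.5 on mix 2, against 51.8, 38.5 and 21202 on mixes 1, 3 and 4, MBP, of myelin, gave 61.1 on mix 2, against 125 on mix 1, 82.5 on mix 3 and 11666 on mix 4, and SYP, of synaptic vesicles, gave 3.80 on mix 2, against 43.3, 6.69 and 7270.0 on mixes 1, 3 and 4. All 3 were bright on mix 4 alone, and without that mix the median of the list was 0.24.

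Gut genes repeated this with mix 1. The 32 intestine genes had a median difference of -0.72 (1.34 without mix 1), the 12 glandular stomach genes -0.25 (1.48 without mix 1) and the 20 smooth muscle genes -0.42 (0.48 without mix 1). ATP4B, of the acid pump, gave 89.5 on mix 2, against 15769.5, 42.7 and 55.9 on mixes 1, 3 and 4. The stomach hormone GHRL, ghrelin, gave 63.0 on mix 2, against 4512 on mix 1, 61.8 on mix 3 and 37.4 on mix 4. The pepsinogen PGA5 was an exception, with a sizeable signal on mix 2 as well: 8662 on mix 2, against 37579, 407 and 405 on mixes 1, 3 and 4. The smooth muscle protein SYNM gave 469 on mix 2, against 7623, 2833 and 1091 on mixes 1, 3 and 4.

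Skeleton and matrix genes were mostly low on mix 2. Of 24 cartilage and bone genes used, 13 were below every other mix, 0 above, and the median difference was -2.63 (-0.55 without mix 3). The list median was 87.3 on mix 2, against 104, 16978 and 500 on mixes 1, 3 and 4. Mix 1 was thus nearly as dim, and the count of 13 includes orderings of dim signals. COL10A1, the collagen of mineralising cartilage, gave 2.85 on mix 2, against 3.43 on mix 1, 27130.1 on mix 3 and 6279.7 on mix 4. Of the bone matrix proteins, IBSP gave 8.23 on mix 2, against 15.8, 12963 and 4346 on mixes 1, 3 and 4, and BGLAP gave 64.5 on mix 2, against 194, 21927 and 8394 on mixes 1, 3 and 4. Mixes 3 and 4 carried these genes and mixes 1 and 2 hardly did. Of 32 fibroblast and matrix genes 18 were below every other mix and 6 above (over all genes 15.7% and 22.2%), with a median of -0.82. Red cell genes (20 used) had a median of -1.22, or -0.30 without mix 3, and their example HBBR, a globin, gave 213 on mix 2, against 131 on mix 1, 5874 on mix 3 and 1424 on mix 4.

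The 8 genes at least 4-fold below every other mix were led by matrix proteoglycans. BGN, biglycan, which binds collagen and growth factors, gave 76.6 on mix 2, against 1880.4, 3931 and 1366 on mixes 1, 3 and 4 (margin -3.57), with 4159.6 on adipose tissue and 48.5 on liver. Of its 4 probe sets 3 passed the filter, and 2 of these were at least 4-fold below. On the third, mix 2 was not the lowest: 86.0 on mix 2, against 18.2 on mix 1, 2308 on mix 3 and 928 on mix 4. FMOD, fibromodulin of tendon and cartilage, gave 194 on mix 2, against 4782, 13867 and 2494 on mixes 1, 3 and 4 (-3.43). COMP, a cartilage and tendon matrix protein, gave 849 on mix 2, against 9685 on mix 1, 19434 on mix 3 and 4376 on mix 4 (-2.31). In each, even the dimmest other mix was more than 4-fold brighter, and liver was dimmer than mix 2.

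The remaining low genes had no single theme. LYG2 is given above, with a margin of -2.69. C1QTNF3, a secreted relative of adiponectin, gave 3.48 on mix 2, against 212, 2722 and 809 on mixes 1, 3 and 4 (-2.48), and MMP10, a matrix-degrading protease, gave 49.7 on mix 2, against 329.9, 2415 and 689 on mixes 1, 3 and 4 (-2.02). NGEF, an exchange factor of neurons, gave 25.3 on mix 2, against 257 on mix 1, 525 on mix 3 and 3282 on mix 4 (-2.15), and HRASLS gave 127 on mix 2, against 788, 669 and 941 on mixes 1, 3 and 4 (-2.07). The brightest mix was mix 3 for 6 of the 8 and mix 4 for NGEF and HRASLS.

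Just outside the rule lay CXCL14, LDHA and REEP1. LDHA, the muscle-type lactate dehydrogenase subunit, was bright everywhere and still lower on mix 2: 4777 on mix 2, against 19286, 18814 and 24576 on mixes 1, 3 and 4 (margin -1.97), with 5341 on adipose tissue and 23909.9 on liver. CXCL14, a chemokine of epithelia, gave 117 on mix 2, against 591 on mix 1, 1082 on mix 3 and 4611 on mix 4, and REEP1, of the endoplasmic reticulum in neurons, gave 362 on mix 2, against 1527, 2807 and 4145 on mixes 1, 3 and 4 (-1.96). Below them in size came SDK2 (-1.92), CDH13 (-1.88), CHAC1 (-1.75) and C1QTNF6 (-1.72).

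**Figure D5:**
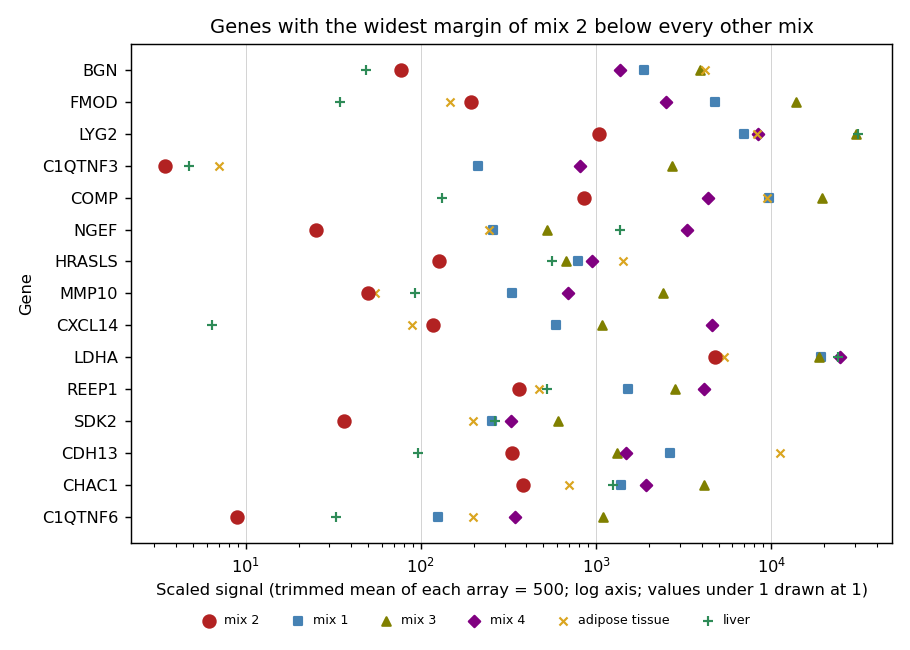
Scaled signal (log axis) of the 15 genes with the widest margin of mix 2 below every other mix, with a point for each of the 6 arrays. The large red circle, mix 2, lies to the left of mixes 1, 3 and 4 in every row, from 3.48 for C1QTNF3 to 4777 for LDHA, while liver or adipose tissue lies further left in several.

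Genes that all cells use differed little. Over all genes, 22.2% lay above and 15.7% below every other mix by any size. The 54 ribosomal protein genes had a median difference of 0.17 with 8 above and 1 below every other mix. The 52 genes of the secretory pathway had 0.03 with 12 above and 7 below. Of these, CALR, a chaperone of the endoplasmic reticulum, gave 5227 on mix 2, against 3828, 3408 and 2504 on mixes 1, 3 and 4. The 48 mitochondrial genes stood at 0.28, with 18 above every other mix and 0 below, among them ATP5G1, of the ATP synthase (9417 on mix 2, against 6792 on mix 1, 3469.7 on mix 3 and 6085 on mix 4), and NDUFS1, of complex I (8062 on mix 2, against 4319, 5866 and 5809 on mixes 1, 3 and 4). These 3 were brightest on mix 2, by less than 2-fold, but a second probe set of ATP5G1 was brightest on mix 1 (margin -0.45).

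Of the genes of lymphocytes and of macrophages and myeloid cells, 0 were at least 4-fold above every other mix. The 21 macrophage and myeloid genes had a median difference of -0.17, with 4 above every other mix and 5 below. The 34 lymphocyte genes had a median of 0.54, 10 above every other mix and 0 below, where all genes gave 22.2% and 15.7%. CCL19, which guides lymphocytes, gave 2564 on mix 2, against 2534, 774 and 659.5 on mixes 1, 3 and 4. The 37 cell cycle genes had -0.31, 0 above and 6 below, and MKI67, of dividing cells, gave 975 on mix 2, against 1438 on mix 1, 6451 on mix 3 and 1237 on mix 4. The 21 endothelial genes lay at 0.10 and the 20 adipocyte genes at -0.12, with PCK1 the only one past 4-fold. FABP4, the fatty acid carrier of fat cells, gave 1456 on mix 2, against 731, 15316 and 4226 on mixes 1, 3 and 4, with 44614 on adipose tissue.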

How the data were processed

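Total RNA, extracted with Trizol and labelled as biotinylated cRNA per the labels, was hybridised to 6 Affymetrix chicken arrays. The deposited values are signal intensity on a linear scale, made with MAS5 per the submitters' processing notes; its version and scaling target were not given in the sources used here. Since the description field says adipose tissue for every sample, titles set the groups. The deposited trimmed means lay between 116 and 207, and each array was divided by its 2% trimmed mean and multiplied by 500. Detection calls were not used here, so the lowest signals cannot be told from background. With the pseudocount, a margin understates the ratio of dim genes.

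The platform annotation gave 1 symbol to 27168 probe sets, several to 177 and none to 11094; of those with 1 symbol, 26853 matched RefSeq (GRCg7b) by gene number. Lists were matched regardless of letter case. limma 3.58.1 in R 4.3.3 compared mix 2 with the other mixes (1 mean per group, eBayes with a trend, two-sided), with 2 residual and 2.58 prior degrees of freedom, all from the other mixes. No permutation test was run, as 1 array against 3 has a smallest one-sided p of 0.25. The choice of mix 2, the 33 gene lists and the tests were made with earlier results of these data known. Genes named are the 30 widest margins above and 15 below, those next to the threshold, up to 12 high, 4 other, 3 low and 6 shared members per list, and control genes of tissues. Other genes are marked where they appear.

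The alternatives tried were other scalings (none, quantile, spike-ins), other pseudocounts, no filter, leaving out each other mix, adding adipose tissue and liver, and the mean over the probe sets of a gene. The fit was also run on simulated data in which all probe sets had the same spread, unlike the real mixes, and its outcome is not reported here.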

Additional observations from a re-analysis of the deposited data

How the results depend on the processing

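No paired analysis was possible because mix 2 is a single array and the other mixes are different mixtures. The counts depend on which arrays are compared. Leaving out 1 other mix gave 263 to 499 probe sets and 146 to 290 genes above, and 38 to 131 probe sets and 21 to 77 genes below. With adipose tissue and liver added, 143 probe sets and 77 genes were above and 2 probe sets and 2 genes below. The pooled median as pseudocount left 5 probe sets and 4 genes below. The mean over all probe sets of a gene, chosen after seeing the data, left 5 genes below. Limma was rerun under most alternatives, always with mix 2 as the only array on its side and with fewer other mixes where a mix was left out. The absence of passing probe sets in these fits is no check of the results, because so few arrays can hardly make a probe set pass.

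Among the genes named by rule whose margins were recomputed, those that changed sign with adipose tissue and liver added were AvBD9 (-2.84), CAPSL (-1.94), CYP4B7 (-1.67), FGB (-2.20), GATM (-0.99), KHK (-0.68), RIDA (-2.01), SLC37A4 (-0.93), BGN (0.39), COMP (2.36) and FMOD (1.62). Of all 133 high genes, 29 were dimmer on mix 2 than on adipose tissue or liver, among them DPYS (-1.08), MAT1A (-1.95) and HGD (-3.73). With the mean over probe sets SLC37A4 stood at -0.0645. Of 330 list medians recomputed, 293 moved by less than the median SD of the other mixes and 37 by more. Each gene margin was held instead to the SD of that gene over the other mixes, which is wide for some genes. Of 704 margins above, 561 moved by less than the gene's own SD, 134 by more and 9 changed sign. Of 88 margins below 77, 8 and 3 did. Both counts include settings whose outcome was fixed in advance. Using no filter leaves these margins unchanged, and leaving out a mix can only widen them or leave them as they were. The shares that stayed are therefore no measure of stability. Signals near the pseudocount limit how small a ratio can be read.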

Other observations

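Probe sets without a gene symbol were among the widest margins on mix 2. The widest of them gave a scaled signal of 15265 on mix 2, against 3.96, 5.41 and 75.9 on mixes 1, 3 and 4. The next gave 15201 on mix 2, against 19.8, 18.5 and 80.2 on mixes 1, 3 and 4. These margins were 7.02 and 6.96, next to the 7.04 of AVDL.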
